A study of Mus musculus with 6 samples.

Results

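Classical type I interferon response genes were followed in LSK cells, the lineage-negative Sca-1+ c-Kit+ haematopoietic stem and progenitor cells of bone marrow. The genes were *Ifit1*, *Ifit2*, *Ifit3*, *Isg15*, *Usp18*, *Oasl2*, *Rsad2*, *Mx1*, *Irf7* and *Ifi44*. They were found by gene name among the probes that are not controls, and every probe of each gene was kept. That gave 10 of the 37074 gene names on the array and 14 of its 56605 probes.

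Type I interferons (interferon alpha and beta) bind a receptor made of IFNAR1 and IFNAR2. The kinases JAK1 and TYK2 then start a signal that ends in the factor ISGF3, which holds STAT2 and IRF9, and ISGF3 binds the interferon-stimulated response element (ISRE) in promoters of genes such as those followed here. Their products act against viruses, or tune the response itself, and many are also induced by other signals, such as those that use IRF factors. In adult bone marrow, type I interferon is known to drive quiescent haematopoietic stem cells into the cell cycle.

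The study compared LSK cells that carry or lack *Atg5*, a gene needed to form autophagosomes. All mice were C57BL/6, aged P6 to P8, and carried Vav-iCre, which is active in haematopoietic cells. The control mice were Atg5w/w;Vav, with no floxed allele, and the others were Atg5f/f;Vav, with both alleles floxed, so that *Atg5* is deleted in blood-forming cells and not in the animal as a whole. Each group had 3 samples, each on a 1-colour Agilent array of its own. The labels do not say whether a sample held the cells of 1 mouse or of several, so p-values measure the spread between these samples.

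*Atg5* itself was measured by a single probe, at 1.10, 0.93 and 1.06 in control cells and at 1.46, 1.51 and 1.74 in cells labelled Atg5f/f;Vav. It was therefore higher in the group labelled as deleted (log2 difference 0.54, limma adjusted p = 0.0209). Its place relative to the floxed exon was not determined, so it does not check the labels, and groups are named by their labels throughout. These values, like all signals below, are log2 intensities minus the 75th percentile of the same array, so that 0 marks that percentile and a difference of 1 is a 2-fold change. Signals of different probes cannot be set against each other.

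All 6 arrays lay on 1 slide. Its row 1 held the control arrays and its row 2 those labelled Atg5f/f;Vav, so the effect of the row cannot be told apart from that of the genotype. Probe signals correlated at 0.993 among control arrays, at 0.982 to 0.992 among the arrays labelled Atg5f/f;Vav, and at 0.952 to 0.985 between the groups. All 7 LSK markers were well above background on every array. All 6 neutrophil markers and 3 of 3 measured stromal markers were lower in the arrays labelled Atg5f/f;Vav (limma adjusted p under 0.05). The same held for 3189 of the 20778 genes tested. The median of the stromal markers was 3.36 and 2.95 on control replicates 2 and 3, against -0.90 on control replicate 1, and lay between -2.10 and -1.60 on the arrays labelled Atg5f/f;Vav. In bulk samples, fewer cells of a type and less RNA per cell cannot be told apart.

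Promoter sequences are shown first, since ISGF3 acts there. RefSeq windows on GRCm38.p6, from 250 bases before to 50 bases after the start site, covered 8 of the 10 genes in 9 windows. *Mx1* and *Usp18* have no window here. The windows were searched on both strands for the core letters of the ISRE, GAAANNGAA, and of the gamma-activated sequence (GAS), TTCNNNGAA, the element named for its part in the response to interferon gamma. In the 4 stretches below, written 5′ to 3′ on the gene's own strand, capitals mark ISRE cores, which read as TTCNNTTTC where they lie on the opposite strand. These genes are shown because their cores lie wholly before the start site.
Ifit1, chr19:34640760-34640833, plus strand: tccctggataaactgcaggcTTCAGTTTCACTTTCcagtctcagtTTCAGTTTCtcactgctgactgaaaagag
Ifit3, chr19:34583354-34583455, plus strand: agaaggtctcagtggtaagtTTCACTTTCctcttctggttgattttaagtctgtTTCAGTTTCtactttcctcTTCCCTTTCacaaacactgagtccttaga
Isg15, chr4:156200856-156200916, minus strand: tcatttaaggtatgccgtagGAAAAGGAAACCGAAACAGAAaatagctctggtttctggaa
Rsad2, chr12:26456532-26456591, minus strand: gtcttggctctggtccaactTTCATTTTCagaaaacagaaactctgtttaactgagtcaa

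*Ifit1*, *Ifit3* and *Isg15* each held 3 ISRE cores, within 155 bases of the start site. In *Isg15* the cores overlapped to form 1 run, starting at bases -78, -72 and -66, and in *Ifit1* the pair at -109 and -103 overlapped. *Rsad2* held 1 core, at -119, and *Ifi44* held 1 that began at -3 and crossed the start site. No ISRE core was found in the windows of *Ifit2*, *Oasl2* and *Irf7*, which says only that these letters are not in those windows. Thus 5 of 8 genes (62.5%) had an ISRE core, against 9.76% of the 27025 genes with a window and 8.56% of all 32851 windows. A GAS core was present in 1 of the 8 genes (12.5%), *Ifit2*, at -241, against 9.55% of all genes with a window. Among the other interferon response genes described below, 23 of 45 type I response genes and 13 of 21 interferon gamma response genes had an ISRE core, and 7 of 45 and 9 of 21 a GAS core.

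**Figure D1:**
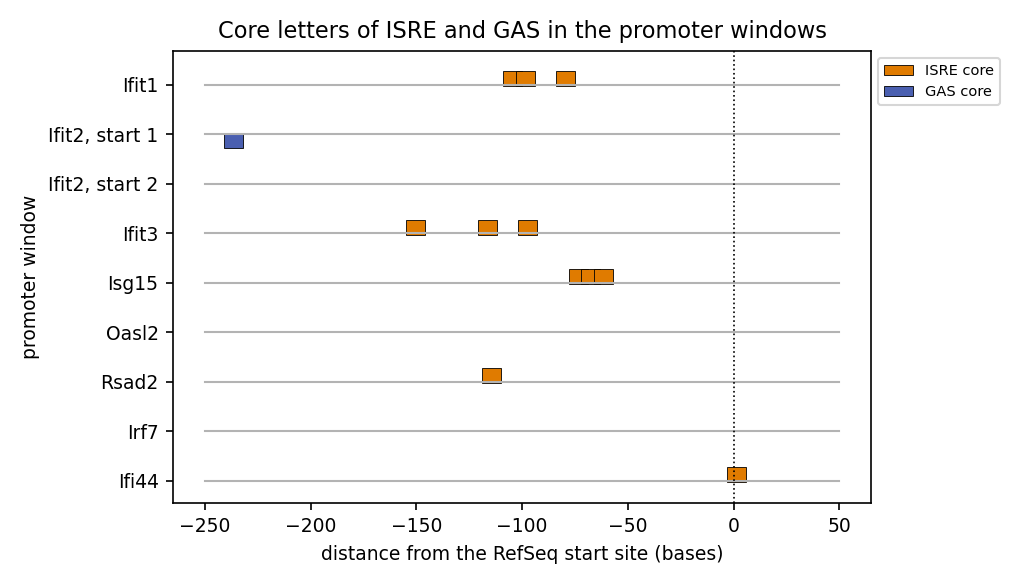
Core letters of the ISRE (orange) and GAS (blue) in the promoter windows of 8 of the 10 genes, by distance in bases from the RefSeq start site (dotted line). Each grey line is 1 window, from 250 bases before to 50 bases after the start site, boxes span a match, and *Ifit2* has 2 start sites. The cores of *Ifit1*, *Ifit3* and *Isg15* begin between -155 and -66.

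All 10 genes rose in the arrays labelled Atg5f/f;Vav, with log2 differences from 0.36 (*Ifit2*) to 2.94 (*Isg15*). The median was 2.01, against -0.03 over the 20778 genes tested. With each gene represented by its probe of highest mean signal, 10 of 10 passed the limma test in the upward direction (adjusted p from 0.00499 to 0.0464), and 18.7% of all genes did so. By probe, 14 of 14 were higher and 13 of 14 passed, against 17.3% of all probes. Of the 14 probes, 13 showed no overlap between the groups, with every array labelled Atg5f/f;Vav above every control array, as held for 27.1% of all probes. The 10 genes, and the gene lists below, were chosen with earlier results of these data known. Their counts therefore describe these genes and are no test of them against all genes. Each of the 14 probes was well above background on all 6 arrays. Some control signals were low, and another background correction (normexp) gave smaller differences, with a median over the genes of 1.81. On the dimmer probes of *Mx1* and *Ifi44* it gave 0.74 and 0.97, against 1.21 and 1.45. Leaving out 1 array left 5 of 10 genes past the threshold without control replicate 1, 8 without either of the other control arrays, and 9 without any 1 array labelled Atg5f/f;Vav. The methods' t-test on the same values left 0 of 10 after adjustment, although 13 of the 14 probes had an unadjusted p under 0.05 by that test.

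**Figure D2:**
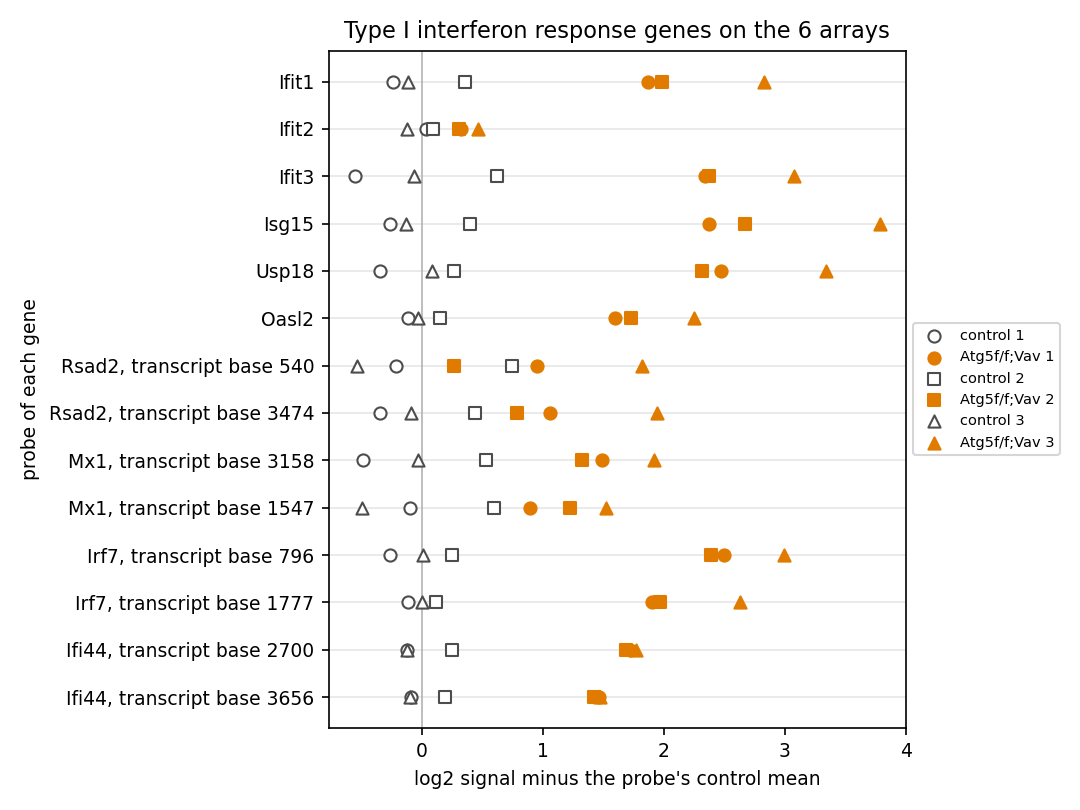
Log2 signal of each of the 14 probes on each array, minus the mean of that probe on the control arrays (horizontal axis), with 1 row per probe. Open symbols are control arrays and filled symbols the arrays labelled Atg5f/f;Vav, with circle, square and triangle for replicates 1, 2 and 3; the groups overlap for 1 probe, *Rsad2* at transcript base 540.

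The highest array of each group was the same on every probe, and the lowest was not. Control replicate 2 was the highest control array on 14 of 14 probes, and Atg5f/f;Vav replicate 3 was the highest of its group on 14 of 14. The lowest control array was replicate 1 on 10 probes and replicate 3 on 4. In the other group it was replicate 1 on 6 probes and replicate 2 on 8. Minus each probe's control mean, the median over the genes was -0.25, 0.31 and -0.08 in control replicates 1, 2 and 3 and 1.79, 1.85 and 2.44 in the replicates labelled Atg5f/f;Vav. The median log2 difference of the genes was 2.08 without control replicate 2 and 1.82 without Atg5f/f;Vav replicate 3.

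The Ifit genes encode tetratricopeptide proteins that bind viral RNA and block its translation. Their probes lie within 73.6 kb of mouse chromosome 19. *Ifit1* (probe at chr19:34723827-34723886, mm9) measured -2.45, -1.85 and -2.33 in control cells and -0.34, -0.22 and 0.62 in those labelled Atg5f/f;Vav. The groups were far apart compared with the spread within them, and the difference was 2.23 ± 0.28 (SE, n = 3 arrays per group), a 4.69-fold change (95% confidence interval of the log2 difference 1.55 to 2.91, limma adjusted p = 0.0112).

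*Ifit3* (chr19:34663105-34663164) measured -3.88, -2.70 and -3.39 in the control group and -0.98, -0.95 and -0.24 in the other group. The control arrays spanned a wider range than the arrays labelled Atg5f/f;Vav, yet the highest of them stayed well below the lowest of the other group. The difference was 2.60 ± 0.33 (SE), or 6.06-fold, with adjusted p = 0.0112 by limma. Its control signals were low, and with normexp background correction the difference was 1.81. *Ifit3* has a close copy, *Ifit3b*, and whether its transcripts add to this probe was not determined.

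*Ifit2* rose too, with a smaller difference than its neighbours. Its probe (chr19:34650244-34650303) measured -1.28, -1.22 and -1.44 in control cells and -0.99, -1.01 and -0.85 in cells labelled Atg5f/f;Vav. The groups did not overlap, but the gap between the closest arrays was 0.22, and the log2 difference was 0.36 ± 0.11 (SE), or 1.29-fold (95% confidence interval 0.09 to 0.63, limma adjusted p = 0.0464). A larger difference was measured for 22.3% of all genes. The call for *Ifit2* was lost without any 1 of the 6 arrays (limma adjusted p from 0.0700 to 0.129), and with scaling to probes detected on all arrays its difference was 0.16 (adjusted p = 0.291).

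The change of *Ifit1* exceeded that of *Ifit2* by 1.87 and the change of *Ifit3* exceeded it by 2.23, on the log2 scale. Expressed as the within-array difference from *Ifit2*, minus its control mean, *Ifit3* lay at -0.59, 0.53 and 0.06 in control cells and at 2.02, 2.06 and 2.62 in cells labelled Atg5f/f;Vav, with no overlap. An exact 2-sided permutation test over arrays gave p = 0.1 for each of these 2 pairs, which is the smallest value that 3 arrays against 3 can give. The test could therefore not pass at 0.05. This contrast was not among the planned comparisons, and each gene rests on 1 probe, so an effect of the probe cannot be told apart.

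*Isg15*, a ubiquitin-like protein joined to newly made proteins, changed most among the 10 genes with the main processing. Its probe (chr4:155573649-155573708, mm9) measured 1.39, 2.06 and 1.52 in control cells and 4.03, 4.33 and 5.44 in those labelled Atg5f/f;Vav. Replicate 3 of the latter stood about 1 log2 unit above its group, and even the lowest array of the group exceeded every control array by more than the control arrays differed among themselves. The difference was 2.94 ± 0.37 (SE), or 7.69-fold (95% confidence interval 2.06 to 3.83, limma adjusted p = 0.0112), which ranked 58 among the 20778 genes.

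*Usp18*, the protease that removes ISG15 from its targets and also dampens signalling at IFNAR2, measured -2.08, -1.47 and -1.66 in control cells and 0.74, 0.58 and 1.60 in cells labelled Atg5f/f;Vav (chr6:121220874-121220933). The groups were separated by more than 2 log2 units, with a difference of 2.71 ± 0.29 (SE), or 6.54-fold (limma adjusted p = 0.00805). The enzymes that attach ISG15 rose too, and by less. The E1 enzyme *Uba7* differed by 0.71 (adjusted p = 0.0158), the E2 enzyme *Ube2l6* by 1.15 (adjusted p = 0.0188, and 1.84 on its other probe), and the mouse E3 ligase *Herc6* by 0.69 (adjusted p = 0.0378). All 5 genes of ISG15 attachment and removal therefore rose, with a median difference of 1.15, while 18.7% of all genes rose. *Isg15* and *Usp18* are among these 5 and were already counted with the classical genes.

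*Oasl2*, a member of the oligoadenylate synthetase family that senses double-stranded RNA, measured 1.63, 1.90 and 1.71 in the control group and 3.34, 3.48 and 3.99 in the other group (chr5:115362168-115362227). The groups were tight and well apart, at a difference of 1.86 ± 0.19 (SE), or 3.63-fold (limma adjusted p = 0.00701). Its paralogue *Oasl1*, known to restrain translation of *Irf7*, rose by 2.32 (adjusted p = 0.00921) and by 2.29 on a further probe.

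*Mx1*, a dynamin-like GTPase that blocks influenza virus and is defective in many laboratory mouse strains, had 2 probes. The one with the higher signal (chr16:97668644-97668703, mm9) measured -2.30, -1.28 and -1.85 in control cells and -0.32, -0.49 and 0.11 in cells labelled Atg5f/f;Vav, a difference of 1.58 ± 0.28 (SE), or 2.99-fold (limma adjusted p = 0.0156). Of the other probe 25 bases were placed on the genome, at chr16:97668644-97668668, and it measured -3.45, -2.76 and -3.85 against -2.46, -2.13 and -1.83, a difference of 1.21 ± 0.30 (SE; adjusted p = 0.0243). Those 25 bases lie within the stretch of the first probe, although the transcript bases given for the probes differ (1547 and 3158). The place of the second probe was therefore not settled. The groups did not overlap on either probe. *Mx2*, the neighbouring paralogue, rose by 0.78 (adjusted p = 0.0200).

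*Rsad2* encodes viperin, which makes a chain-terminating nucleotide, and was the gene whose probes differed in outcome. The probe near the 3′ end of its transcript (chr12:27127859-27127918, mm9, transcript base 3474) measured -0.84, -0.05 and -0.58 in control cells and 0.57, 0.30 and 1.46 in those labelled Atg5f/f;Vav. The closest arrays of the groups were control replicate 2 and Atg5f/f;Vav replicate 2, and the difference was 1.26 ± 0.33 (SE), or 2.40-fold (95% confidence interval 0.47 to 2.06, limma adjusted p = 0.0298). Without any 1 of the 3 control arrays this call was lost (adjusted p from 0.0717 to 0.0974).

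The second *Rsad2* probe, of 60 bases, is placed over a stretch of 3302 bases and so crosses an intron (chr12:27135585-27138886, transcript base 540). It measured -2.97, -2.01 and -3.29 in control cells and -1.80, -2.49 and -0.94 in those labelled Atg5f/f;Vav. Here the groups overlapped, since Atg5f/f;Vav replicate 2 fell below control replicate 2. The difference was 1.01 ± 0.46 (SE), with a 95% confidence interval from -0.08 to 2.11 that contains the value of the other probe (limma adjusted p = 0.124). This was the probe of the 14 that did not pass.

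*Ifi44*, a cytoplasmic protein of the response with a less settled function, differed little among the arrays labelled Atg5f/f;Vav. Its brighter probe (chr3:151394035-151394094, mm9) measured -1.39, -1.01 and -1.39 in the control group and 0.46, 0.43 and 0.51 in the other group. These 3 values lay within 0.1 of each other, and the difference was 1.73 ± 0.14 (SE), or 3.31-fold (limma adjusted p = 0.00499). The dimmer probe (chr3:151409005-151409064) measured -3.10, -2.82 and -3.10 against -1.54, -1.58 and -1.54, a difference of 1.45 ± 0.12 (SE; adjusted p = 0.00511). Its paralogue *Ifi44l* was well above background on 0 of 6 arrays.

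*Irf7*, the transcription factor that drives production of interferon alpha, also had 2 probes. The probe with the higher signal (chr7:148449104-148449163, mm9) measured 2.88, 3.11 and 3.003 in control cells and 4.90, 4.97 and 5.63 in cells labelled Atg5f/f;Vav. Control arrays agreed within 0.3, and the difference was 2.17 ± 0.21 (SE), or 4.49-fold (limma adjusted p = 0.00606). The other probe, also placed across an intron (chr7:148450664-148451014), measured -2.87, -2.35 and -2.60 against -0.10, -0.22 and 0.39, a difference of 2.63 ± 0.21 (SE), or 6.19-fold (adjusted p = 0.00499). The confidence intervals of the 2 probes, 1.68 to 2.66 and 2.14 to 3.12, overlapped.

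**Figure D3:**
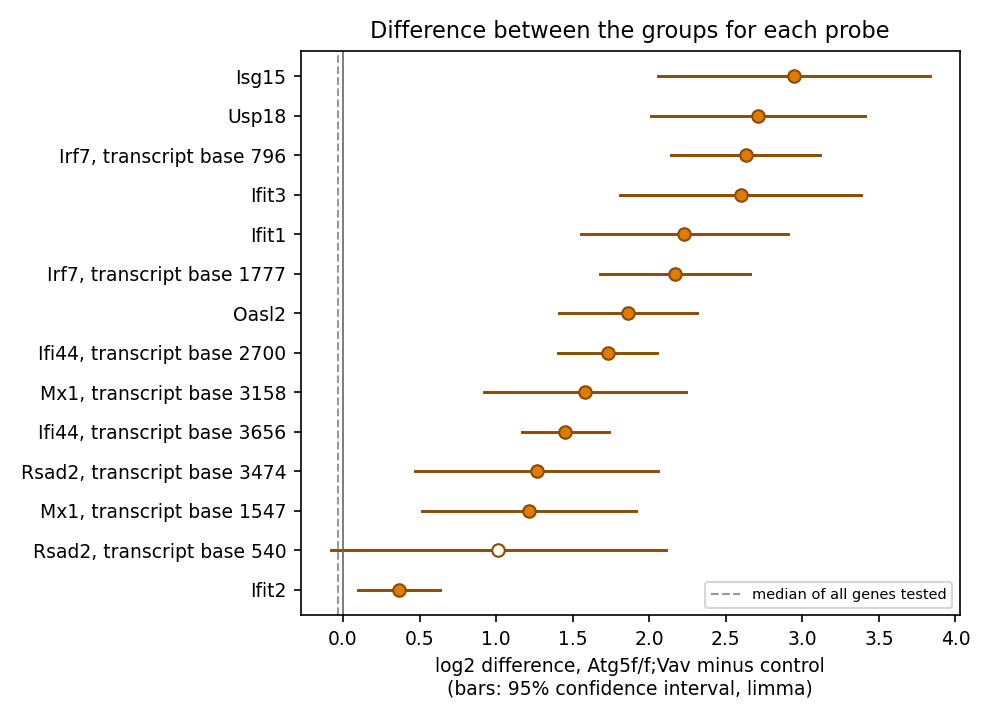
Log2 difference between the groups for each of the 14 probes, arrays labelled Atg5f/f;Vav minus control arrays, ordered by size. Points are limma estimates and bars their 95% confidence intervals; filled points passed at an adjusted p of 0.05 and the open point, *Rsad2* at transcript base 540, did not; the dashed line is the median of all genes tested, -0.03.

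By size of the difference the genes ran *Isg15*, *Usp18*, *Ifit3*, *Ifit1*, *Irf7*, *Oasl2*, *Ifi44*, *Mx1*, *Rsad2* and *Ifit2*. The 95% confidence intervals of all neighbours in this order overlapped, from 2.06 to 3.83 for *Isg15* down to 0.47 to 2.06 for *Rsad2* and 0.09 to 0.63 for *Ifit2*. Apart from *Ifit2*, the genes ranked from 58 to 355 of 20778, so that at most 1.70% of genes had a larger difference. The order depended on the processing. With quantile scaling *Ifit3* (2.79) and *Usp18* (2.74) exceeded *Isg15* (2.68). With normexp background correction *Ifit1* and *Ifit3* were both at 1.81, below *Oasl2* (1.84) and the brighter *Irf7* probe (2.16).

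The signalling chain upstream of these genes was measured next, with 6 genes, those of the receptor, its kinases, *Stat2* and *Irf9*. Of these, 2 rose past the threshold (33.3%), against 18.7% of all genes. With so few genes, the count only describes them. *Irf9* measured 2.25, 2.42 and 2.20 in control cells and 3.11, 2.99 and 2.98 in those labelled Atg5f/f;Vav, with no overlap. It rose by 0.74 (limma adjusted p = 0.0145), with 0.86 on its other probe, and *Stat2* by 0.87 (adjusted p = 0.0166), although a second *Stat2* probe differed by 0.23 (adjusted p = 0.415). The receptor chain *Ifnar1* differed by -0.14 (adjusted p = 0.481), with lower values past the threshold on 2 of its other probes (-0.41 and -0.43). *Ifnar2* differed by 0.05 (adjusted p = 0.767), *Jak1* by -0.22 (adjusted p = 0.163) and *Tyk2* by 0.60 (adjusted p = 0.0535).

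Transcripts of the interferons themselves gave signals that were low or not well above background. Of 18 interferon genes on the array, 7 were well above background on at least 3 arrays, at signals from -4.40 to -2.94. That range also holds control signals of *Ifit3* and of the dimmer *Mx1* and *Ifi44* probes. By limma 0 of these rose (0 also at an unadjusted p under 0.05 and by the methods' t-test), and the median difference was -0.19. *Ifnab* alone fell, by 0.50 (limma adjusted p = 0.0224), although a second *Ifnab* probe differed by -0.08 (adjusted p = 0.870). Over all 20778 genes tested, 3887 rose and 3189 fell. *Ifnb1* and *Ifng* were well above background on 0 of 6 arrays. The interferon alpha genes are near copies of each other, so a probe may read several of them.

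The wider type I response was taken as 58 other genes, the paralogues and the ISG15 attachment enzymes included, of which 57 were on the array and 54 could be tested. By limma 44 rose (81.5%, against 18.7% of all genes) and 10 did not pass. By the same test 0 fell (1 at an unadjusted p under 0.05, and 0 by the methods' t-test). The median difference was 0.96, with a range from -0.41 to 4.20. The differences were largest for *Zbp1*, a sensor of Z-form nucleic acids that can trigger cell death, which rose by 4.20 (limma adjusted p = 0.00701), and for *Ifit3b*, *Ifi205* (2.46, adjusted p = 0.0178) and *Oasl1*. *Ifit3b* was not well above background on any control array and was on all 3 others, so its difference is given as at least 6.11-fold, against the dimmest signal well above background on each control array or its own signal where that was higher. It entered the test through the group where it was high, so its p is not used. Among the 53 genes above background in both groups, 43 rose, with a median of 0.96. Among those that did not pass were *Oas1b* (-0.05), *Ifitm1* (-0.20), *Oas1c* (-0.35), *Epsti1* (-0.02) and *2010002M12Rik*, the Ifit paralogue *Ifit1bl2* (-0.41, adjusted p = 0.0685); these 5 were named after their values were seen. A further Ifit paralogue, *Gm14446* (*Ifit1bl1*), was well above background on 0 control arrays and on 2 of 3 arrays labelled Atg5f/f;Vav and was not tested.

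Genes known mainly for their response to interferon gamma, made mainly by T and NK cells, rose as well. Of 26 tested, 24 rose by limma (92.3%, against 18.7% of all genes), with a median of 1.83. By the same test 0 fell (0 also at an unadjusted p under 0.05 and by the methods' t-test). Differences were 4.76 for the immunity-related GTPase *Iigp1* (limma adjusted p = 0.00260), 4.42 for the chemokine *Cxcl10* (adjusted p = 0.00334) and 4.28 for *Gm4951* (adjusted p = 0.00327). *Cxcl9*, a further chemokine, was not well above background on any control array and was at least 2.45-fold higher on the others. It too entered the test through the group where it was high, and without it 23 of 25 genes rose, with a median of 1.82. *Icam1* (-0.17, adjusted p = 0.414) and *Cd274* (0.35, adjusted p = 0.0769) did not pass. Many of these genes also respond to type I interferon, so the lists do not separate the kinds of interferon.

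**Figure D4:**
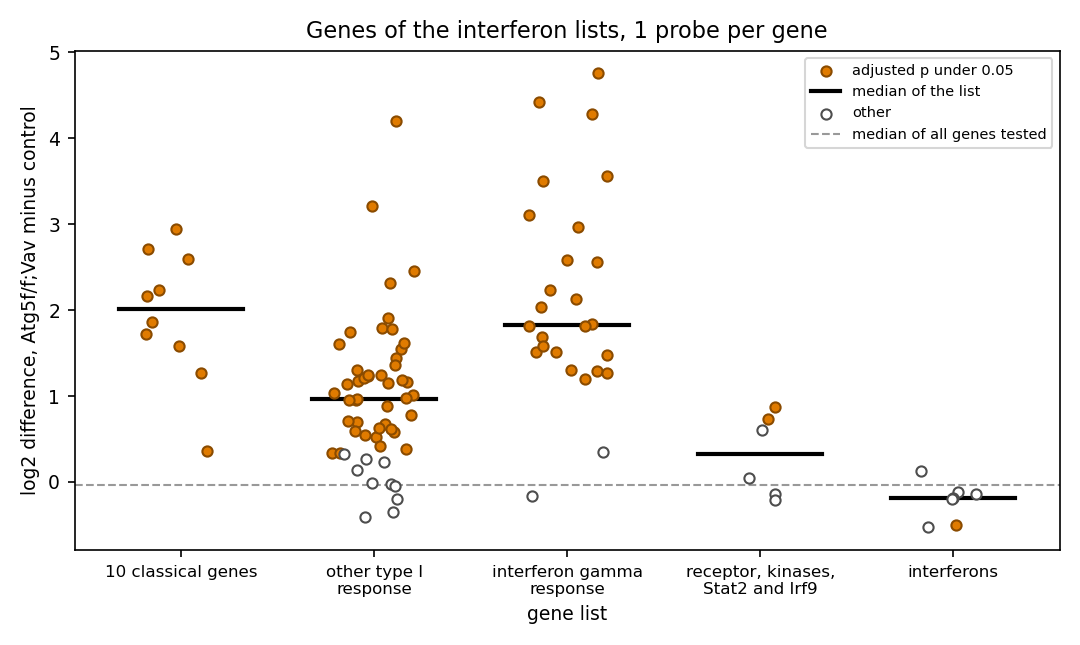
Log2 difference of each gene tested, arrays labelled Atg5f/f;Vav minus control arrays, for the 10 classical genes and the other interferon lists, with 1 probe per gene. Filled points passed at an adjusted p of 0.05, black bars are list medians (2.01 for the classical genes, 0.96, 1.83, 0.33 and -0.19 for the lists to their right), and horizontal scatter carries no meaning; all 10 classical genes lie above the dashed median of all genes, -0.03.

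The list medians on each array showed the same split by group. The median signal of the classical genes was -1.34, -1.12 and -1.41 in control cells and 0.51, 0.36 and 1.04 in those labelled Atg5f/f;Vav. The other type I response genes had medians of 1.53, 1.58 and 1.49 against 2.09, 2.18 and 2.44, and the interferon gamma response genes 0.91, 0.69 and 0.83 against 3.002, 3.29 and 3.55. On all 3 lists the lowest array labelled Atg5f/f;Vav was above the highest control array, and replicate 3 was the highest of all. Control replicate 2 was the highest control array for the classical genes and for the other type I response genes, and the lowest for the interferon gamma response genes.

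**Figure D5:**
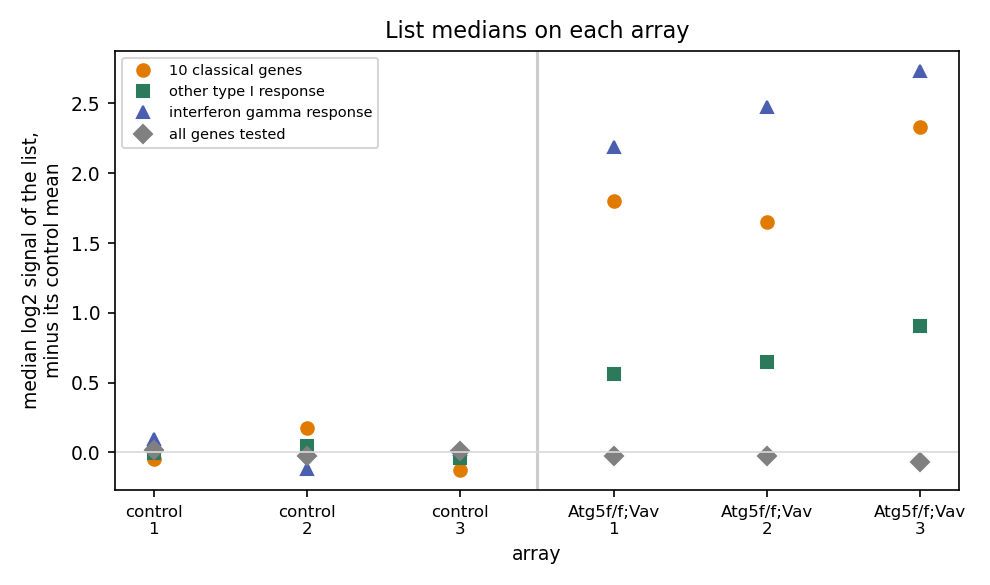
Median log2 signal of 3 interferon lists and of all genes tested on each of the 6 arrays, minus the mean of the control arrays for that list. Each symbol is 1 array; the medians of the interferon lists are higher on all 3 arrays labelled Atg5f/f;Vav than on any control array, while those of all genes lie within 0.1 of 0 on every array.

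The genes whose pattern over the 6 arrays was most like the median of the 10, by the mean absolute difference of log2 values after the control mean was taken off, were sought among 18372 genes. After 1 probe named only by its genomic place (mean absolute difference 0.156) they were *Gbp11* (0.171), *Serpina3f* (0.182), *Gvin1* (0.190) and *Irgm1* (0.196), whose own differences between the groups were 2.07, 1.94, 1.84 and 2.23. *Gbp11*, *Gvin1* and *Irgm1* encode interferon-inducible GTPases. The likeness is a description over 6 arrays, which share the split into groups.

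Markers of cell types, those that make or respond strongly to interferon among them, were measured beside the genes. The counts below stand beside 3887 genes that rose and 3189 that fell among the 20778 tested. Of 6 plasmacytoid dendritic cell markers 5 were tested, 1 rose (*Cox6a2*, by 1.15) and 1 fell (*Ccr9*, by 1.37). The surface marker *Siglech*, represented by 1 of its 3 probes, differed by -0.14 (limma adjusted p = 0.435). Whether its signal came from such cells was not determined. Their summed linear signal, in units of each array's 75th percentile, was 148 to 181 in control cells and 137 to 164 in those labelled Atg5f/f;Vav. *Siglech* dominated this sum, so it hardly reflects the other markers. Of 8 macrophage and monocyte markers 5 were tested and 1 rose (*Ccr2*, by 0.97, limma adjusted p = 0.0209). Their sums, mostly from *Csf1r*, were 4.75 to 6.34 and 6.69 to 6.76. *C1qa*, *C1qc* and *Mrc1* were not above background often enough to be tested. Of 6 T and NK cell markers 3 were tested and did not pass. Their sums, mostly from *Nkg7*, were 5.35 to 9.30 and 8.51 to 9.76. Neutrophil marker sums were 77.4 to 161 and 37.0 to 66.6 and stromal sums 2.15 to 30.7 and 0.96 to 1.29. Of 6 erythroid markers 2 rose, *Klf1* (by 2.95) and *Epor* (by 2.08), and 3 fell, *Hba-a1*, *Hbb-b1* and *Alas2*, and their sums, which *Hba-a1* dominated, were 218 to 497 and 70.5 to 97.1. The part of these cells in the rise of the interferon response genes was not tested.

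*Ly6a*, which encodes the Sca-1 antigen used to sort LSK cells and is itself known to be induced by interferons, measured 1.56, 1.31 and 1.53 in control cells and 2.89, 2.91 and 3.30 in cells labelled Atg5f/f;Vav, a difference of 1.57 ± 0.15 (SE; limma adjusted p = 0.00623). Every array labelled Atg5f/f;Vav was above every control array. Of the other LSK markers, *Meis1* (-0.78, adjusted p = 0.0484) and *Hlf* (-1.65, adjusted p = 0.0172) fell, and *Kit*, *Flt3*, *Cd34* and *Gata2* did not pass. The median of the 7 LSK markers was 4.01, 4.12 and 3.93 in control cells and 3.82, 3.44 and 3.07 in those labelled Atg5f/f;Vav. Replicate 3, the lowest here, was the highest of its group for the interferon response genes. Whether the gate took in different cells in the groups was not tested.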

How the data were processed

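RNA of sorted LSK cells from 3 control and 3 Atg5f/f;Vav samples had been hybridised to 1-colour Agilent arrays with 60-base probes. In the deposited scanner files each spot has an intensity that, per the file headers, Agilent Feature Extraction 12.0.3.1 corrected for background and spatial trend, with no scaling between arrays. Probes are placed on mm9. The authors' deposited table holds a linear signal, which is that intensity over the 75th percentile of every spot on the array. The ratio varied by at most 0.000185% within an array, so scale and direction are known and genes were not centred. Its log2 medians were -3.49, -3.49 and -3.64 for control and -3.88, -3.77 and -3.89 for Atg5f/f;Vav.

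Scanner intensities were put on the log2 scale, and the array's 75th percentile over 59305 non-control spots (620.3 to 881.4) was subtracted. Outlier spots (64 to 81 per array) were dropped, and 0 were saturated. Spots well above background made up 59.4 to 59.9% on control and 53.6 to 56.7% on the other arrays. limma 3.58.1 in R 4.3.3 was run on the 32074 probes that were well above background on 3 or more of the 6 arrays (2-sided, Benjamini-Hochberg, threshold 0.05), after a check on simulated data. Array number limits the precision. Summary counts used the probe of highest mean signal per gene. Exact permutation tests covered the Ifit pairs. Symbols are those of the array's design, and exon positions on mm9 were not determined.

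Named were the 10 genes, their paralogues, all genes of ISG15 attachment and of the receptor and its signalling (1 gene is not reported here), up to 4 genes with the largest change of the other lists, interferons, *Atg5*, *Ly6a* and the 5 most alike genes. The members and lists were chosen with earlier results of these data known. Alternatives were normexp (offset 50), quantile scaling, scaling to the probes detected throughout, the deposited values, other filters, outlier spots kept, an intensity trend, the methods' t-test, a replicate block, leave-one-out fits, the mean of a gene's probes, and other motif letters or windows.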

Additional observations from a re-analysis of the deposited data

How the results depend on the processing

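All 14 probes were higher in the arrays labelled Atg5f/f;Vav under all 16 alternatives. Of 224 values, 189 kept their side of the threshold and 35 no longer passed, and 0 turned. Between 8 and 10 of the 10 genes passed under each alternative except the methods' t-test and the fit without control replicate 1. The methods' t-test called 0 probes after adjustment, against 13541 at an unadjusted p under 0.05, and 0 of the 10 genes (adjusted p of the 14 probes from 0.0506 to 0.255). With no filter on dim probes 4538 of 56605 probes passed, against 11024 of 32074, and 8 of the 10 genes, with *Ifit2* and *Rsad2* lost. Leaving out 1 array in turn gave 251 to 10304 probes and 5 to 9 of the 10 genes. The lowest probe counts were 251 without control replicate 2 and 330 without control replicate 1. Without control replicate 1, *Ifit1* (0.0513), *Ifit2* (0.129), *Isg15* (0.0510), *Rsad2* (0.0974) and *Mx1* (0.0649) missed the threshold, by adjusted p. The cause was not tested. The median of the other type I response genes was 0.77 with quantile scaling and 0.76 with scaling to the 75th percentile of probes detected on all 6 arrays, against 0.96. The latter scaling shifted the median of all probes from -0.06 to -0.27 and the split of calls from 5540 higher and 5484 lower to 3371 and 10088, and quantile scaling gave 4714 and 3705.

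Replicate numbers gave no pairing, since deviations of same-numbered arrays correlated at -0.07, 0.19 and 0.11. With a replicate block, 10173 probes and 8 of the 10 genes passed, and *Ifit2* (adjusted p = 0.0833) and *Rsad2* (0.0581) did not. Replicate number is also the slide column in both groups, so that block is a block by column too. Slide row follows the groups, so a block by row could not be fitted. An ISRE core with 1 more base, or a window ending at the start site, left 4 of 8 genes with a core, against 5.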
